A study of Mus musculus with 13 samples.

Results

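A list of 56 cell cycle genes was drawn up by name, and 55 of them were found among the 45250 genes of the deposited RNAseq table. Cdt1, a licensing factor, was not matched by its name, and its expression was not analysed here, though its promoter was. The 55 genes passed the filter on low values and were among the 13802 genes tested, Cdkn2c only through HE1 libraries. By role there were 9 G1 and S phase cyclins, kinases and a phosphatase, 5 genes of the E2F and RB family, 12 of replication licensing and the fork, 3 of nucleotide synthesis, 8 G2 cyclins and their regulators, 13 of mitosis, and 5 inhibitors and checkpoint kinases. RNA was measured in cells differentiated in culture from mouse embryonic stem (ES) cells, to follow the loss of the blood transcription factors LMO2 and TAL1. Flk-1+ cells, a haemangioblast fraction that can form endothelium and blood, were isolated from embryoid bodies with magnetic beads, with 3 libraries each of WT, Lmo2-/- and Tal1-/- cells. HE1, the first haemogenic endothelium (Tie2+, Kit+, CD41-), formed from Flk-1+ cells in blast culture, with 2 libraries each of WT and Lmo2-/- cells. The methods name 1 ES line per genotype (CCB for WT), so a genotype and its line cannot be told apart, and p-values measure the spread between libraries of these lines.

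Cells pass from G1 into S phase when cyclin D and cyclin E kinases free E2F factors from RB proteins, and E2F then switches on genes for nucleotide synthesis and DNA replication. Many genes of G2 and mitosis are instead controlled through CHR and CCAAT elements in their promoters, by complexes that include FOXM1. CDK inhibitors such as p21 and p27 oppose the cycle, and ES cells and early mesoderm are known for rapid division with a short G1.

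The promoters of a few of the genes show these elements. The sequences run 5′ to 3′ over the 160 bases before the annotated start, from RefSeq on GRCm38.p6, and capitals mark the motifs found. Mki67 (chr7:135716380-135716539, reverse strand) and Top2a (chr11:99024190-99024349, reverse strand) are shown because they were called in both genotypes, Cdk1 (chr10:69352913-69353072, reverse strand) because it holds all 3 motifs, and Mcm5 (chr8:75109349-75109508, forward strand) as a replication gene.
Mki67: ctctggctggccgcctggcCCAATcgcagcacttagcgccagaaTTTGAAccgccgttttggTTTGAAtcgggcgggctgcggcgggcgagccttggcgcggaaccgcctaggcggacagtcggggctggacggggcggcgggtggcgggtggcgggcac
Top2a: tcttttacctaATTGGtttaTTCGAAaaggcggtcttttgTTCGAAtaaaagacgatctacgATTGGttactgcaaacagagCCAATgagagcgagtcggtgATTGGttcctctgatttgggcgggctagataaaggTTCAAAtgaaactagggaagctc
Cdk1: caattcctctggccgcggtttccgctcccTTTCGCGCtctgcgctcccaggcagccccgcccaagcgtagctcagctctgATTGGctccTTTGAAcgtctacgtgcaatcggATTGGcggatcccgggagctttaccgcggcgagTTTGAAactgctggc
Mcm5: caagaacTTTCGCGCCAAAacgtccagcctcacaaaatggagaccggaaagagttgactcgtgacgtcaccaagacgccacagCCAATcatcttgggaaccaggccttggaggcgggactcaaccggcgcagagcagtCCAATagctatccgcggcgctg
The motifs searched on both strands were E2F-type (TTTCGCGC, TTTGGCGC, TTTCCCGC or TTTGCCGC), CHR (TTTGAA or TTCGAA, the latter reading the same on both strands) and the CCAAT box (CCAAT). In Mcm5, a pair of E2F-type matches overlap and appear as 1 run of capitals.

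Promoters from 250 bases before to 50 after the start were listed for 45 of the 56 genes, 6 of them with more than 1 promoter. An E2F-type match was found for 7 of 11 replication genes, 0 of 3 nucleotide synthesis genes and 0 of 12 mitosis genes. It was found for 2.60 percent of all 27025 genes with a listed promoter. A CHR match was found for 2 of the 11 replication genes, 9 of the 12 mitosis genes and 4 of 5 G2 genes, and for 21.7 percent of all these genes. In the bases before the start alone, 4 of the 12 mitosis genes held a CHR match, beside 19.6 percent of all genes. The CCAAT box was found for 9 of 11 replication genes and 10 of 12 mitosis genes, and for 41.1 percent of all genes. A match describes these letters only, and its use in these cells was not measured.

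Values are FPKM, which divide fragments by transcript length and library size, and the fragments behind each value are unknown. Lmo2-/- HE1 replicate 1 stood apart, with 9694 genes above 0 against 11861 to 15641 in the other libraries, and 7 of the 55 genes were listed at 0 in it, among them Cdk1 and Pcna. Values that use Lmo2-/- HE1 are therefore also given without it where this moves them by over 1.5 times or ends a call, and the lone library is then assumed to vary like the other groups. Lmo2 was between 21.6 and 30.8 FPKM in WT and between 2.17 and 6.48 FPKM in Lmo2-/- Flk-1+ cells, but 4.30 and 20.6 FPKM in the HE1 libraries labelled WT and 6.42 and 0 FPKM in those labelled Lmo2-/-, which it did not separate. Tal1 was between 22.0 and 37.4 FPKM in WT and between 2.74 and 3.41 FPKM in Tal1-/- Flk-1+ cells. The summed level of 6 haemogenic endothelium markers (Tek, Kit, Cdh5, Pecam1, Cd34 and Sox17) was 5.0 to 15.7 FPKM in Flk-1+ cells and 724 to 818 FPKM in HE1. By gene, Tek and Pecam1 were higher and Cdh5 and Sox17 lower in both Lmo2-/- than in both WT HE1 libraries, and Kit and Cd34 overlapped. Of the mesoderm markers, Pdgfra was at 2.98 and 1.01 FPKM in WT HE1 and 37.3 and 94.5 FPKM in Lmo2-/- HE1. Kdr and Etv2 were lower in Lmo2-/- HE1, and T and Mesp1 were at 0 in HE1. CD41 (Itga2b), which the HE1 gate leaves out, was at 10.4 and 15.4 FPKM in WT HE1 and at 19.8 and 0 FPKM in Lmo2-/- HE1.

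**Figure D1:**
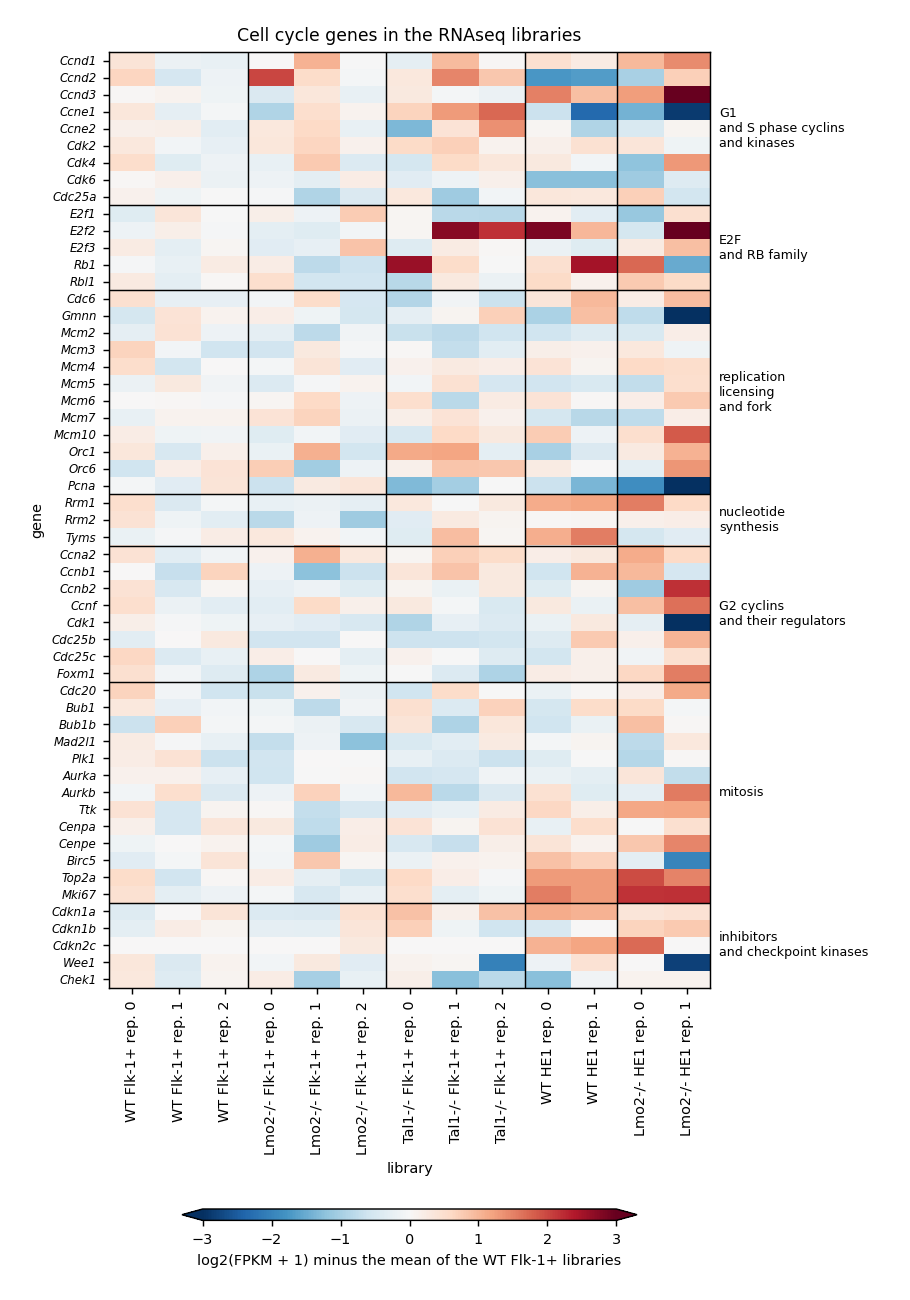
Heat map of the 55 cell cycle genes (grouped by role) in the 13 libraries, where colour gives log2(FPKM + 1) minus the mean of the 3 WT Flk-1+ libraries on a scale limited to 3 in either direction. Mki67 and Top2a are above the WT Flk-1+ mean in the 4 HE1 libraries, and Lmo2-/- HE1 replicate 1 holds 7 genes listed at 0.

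None of the 55 cell cycle genes was called between the Flk-1+ genotypes. A gene was called at a limma adjusted p below 0.05 (Benjamini-Hochberg over the 13802 genes) and a mean above 10 FPKM in a group compared. Between WT and Lmo2-/-, limma called 0 percent of all genes higher and 0 percent lower. An unadjusted p below 0.05 was found for 0 of the 55, beside 307 of the 13802 genes. Between WT and Tal1-/-, limma again called 0 percent of all genes higher and 0 percent lower. Here 1 of the 55 (Mcm2, lower) had an unadjusted p below 0.05, beside 843 of the 13802 genes. Between Lmo2-/- and Tal1-/- limma called 0.00725 percent of all genes higher and 0.00725 percent lower. The unadjusted p was below 0.05 for 2 of the 55 (Ccnb1 and Ccne1, higher), beside 822 of the 13802 genes. No gene was called against WT in Flk-1+ cells, so the targeted genes Lmo2 and Tal1 were missed as well. A lack of calls here therefore does not show equal levels. With Cuffdiff, the paper reported differentially expressed genes between these genotypes. In bulk RNA, fewer cells of a type and less RNA per cell cannot be told apart.

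The median log2 fold change of the 55 genes was -0.12 from WT to Lmo2-/-, 0.00 from WT to Tal1-/- and 0.07 from Lmo2-/- to Tal1-/- Flk-1+ cells, beside -0.01, -0.01 and -0.0044 over all tested genes. From WT to Lmo2-/-, the libraries did not overlap for 0 genes that were higher (3.99 percent of all genes) and 1 that was lower (4.22 percent). From WT to Tal1-/- these were 2 higher (5.25 percent) and 3 lower (7.40 percent), and from Lmo2-/- to Tal1-/- 4 higher (6.59 percent) and 0 lower (6.66 percent). An exact two-sided permutation test cannot give a p below 0.10 for 3 against 3 libraries, 0.20 for 3 against 2 or 0.33 for 2 against 2.

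With the step from Flk-1+ cells to WT HE1, Mki67 and Top2a rose. These 2 genes were 3.64 percent of the 55, against 6.04 percent of all genes called higher, and 0 were called lower, against 0.942 percent. Unadjusted p-values below 0.05 were found for 7 higher and 3 lower genes, beside 3302 of the 13802 genes in either direction. The 7 include Cdkn2c, which passed the filter only through HE1 libraries. Both calls in WT were lost without WT Flk-1+ replicate 1 or 2 or either WT HE1 library. Leaving out either Lmo2-/- HE1 library changed the WT calls as well, since all groups share 1 estimate of the spread. In Lmo2-/-, Ccnd3, Mcm10, Rrm1, Foxm1, Ttk, Cenpe, Top2a and Mki67 rose with this step, and Pcna and Birc5 fell. The 8 that rose were 14.5 percent of the 55, against 17.2 percent of all genes called higher, and the 2 that fell were 3.64 percent, against 2.38 percent. The shares over all genes include genes below the 10 FPKM that a call needs, so they are not a like base. Whether the shares differ was not tested. The split depended on the scaling between stages. With quantile normalization limma called 0 higher and 2 lower (Ccnd2 and Mcm7) in WT, and 2 higher (Ccnd3 and Mki67) and 6 lower (Birc5, Ccnd2, Cdk1, Gmnn, Mcm7 and Pcna) in Lmo2-/-. Over all 13802 genes it called 464 higher and 260 lower in WT, and 685 higher and 563 lower in Lmo2-/-. With each library rescaled to a common median limma called 0 of the 55 in WT, and 3 higher (Ccnd3, Mki67 and Top2a) and 4 lower (Birc5, Gmnn, Mcm7 and Pcna) in Lmo2-/-. Over all genes it then called 531 higher and 192 lower in WT, and 1337 higher and 452 lower in Lmo2-/-. In Lmo2-/-, Ccnd3, Mki67, Birc5 and Pcna were called under all 3 scalings. Without Lmo2-/- HE1 replicate 1, limma called 5 of the 55 in Lmo2-/-, Ccnd3, Mki67, Rrm1, Top2a and Ttk (9.09 percent, against 10.1 percent of all genes called higher), and without Lmo2-/- Flk-1+ replicate 0 or replicate 2 it called 6, with Mcm10, Rrm1, Foxm1 and Birc5 lost.

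WT HE1 libraries lay above all WT Flk-1+ libraries for 12 of the 55 genes (21.8 percent, against 27.6 percent of all genes) and below for 7 (12.7 percent, against 17.2 percent). Lmo2-/- HE1 libraries lay above for 17 genes (30.9 percent, against 31.9 percent of all genes) and below for 6 (10.9 percent, against 15.1 percent). Without HE1 replicate 1 these were 24 above (43.6 percent, against 44.1 percent) and 16 below (29.1 percent, against 25.2 percent), so the share below went from under to over that of all genes. The median log2 fold change to HE1 was 0.13 in WT, beside 0.11 over all tested genes, and 0.50 in Lmo2-/-, beside 0.30. It was 0.23 in Lmo2-/- without HE1 replicate 1. Stage and culture medium cannot be told apart, and pluripotency markers (Pou5f1, Nanog and Zfp42, 3 of 3 found) went from 2.77 to 22.9 FPKM in sum in Flk-1+ cells to 0 in HE1.

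Between the HE1 genotypes, 1 of the 55 genes was called, Tyms, which fell in Lmo2-/- (1.82 percent, against 0.855 percent of all genes called lower), and 0 were called higher, against 2.15 percent. Unadjusted p-values below 0.05 were found for 2 higher and 5 lower genes, beside 2851 of the 13802 genes in either direction. Both Lmo2-/- libraries lay above both WT libraries for 19 genes (34.5 percent, against 25.9 percent of all genes) and below for 5 (9.09 percent, against 13.8 percent). The calls depended on which Lmo2-/- HE1 library was left out, and the call of Tyms was lost without replicate 1. Each such fit rests on a lone library in that group, so further calls made in it are not named here. With replicate 1 left out, the Lmo2-/- library lay above both WT libraries for 25 genes (45.5 percent, against 41.0 percent of all genes) and below for 14 (25.5 percent, against 25.6 percent). With replicate 0 left out it lay above for 36 genes (65.5 percent, against 46.2 percent) and below for 15 (27.3 percent, against 27.7 percent). Limma called 0 of the 55 genes in the interaction, which compares the step to HE1 between WT and Lmo2-/-, against 0.261 percent of all genes higher and 0.0869 percent lower. An unadjusted p below 0.05 was found for 2 (Tyms and Birc5, both lower), beside 1672 of the 13802 genes. Calls in the interaction appeared without Lmo2-/- HE1 replicate 0, a fit that again rests on a lone library in that group.

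Other measures moved with HE1 and with the HE1 genotype. The 4 smooth muscle and fibroblast markers (Acta2, Tagln, Col1a1 and Thy1, 4 of 4 found) summed to 8.62 to 34.7 FPKM in Flk-1+ cells, 173 to 222 FPKM in WT HE1 and 352 to 1099 FPKM in Lmo2-/- HE1, with Thy1 at 0 in HE1. Acta2 was at 165 and 114 FPKM in WT HE1 and 263 and 816 FPKM in Lmo2-/- HE1. Col1a1 was at 6.64 and 5.23 FPKM, within its Flk-1+ range, and at 29.6 and 259 FPKM. Tagln overlapped between HE1 genotypes, at 50.5 and 53.7 FPKM in WT and 59.0 and 24.1 FPKM in Lmo2-/-. Across the 55 genes, the log2 fold change and the length of the longest coding transcript had a Spearman correlation of 0.20 for the WT step, 0.29 for the Lmo2-/- step and 0.31 between HE1 genotypes, beside 0.26, 0.44 and 0.29 over 10688 genes of the same libraries. The part of these and of depth in the results was not tested.

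**Figure D2:**
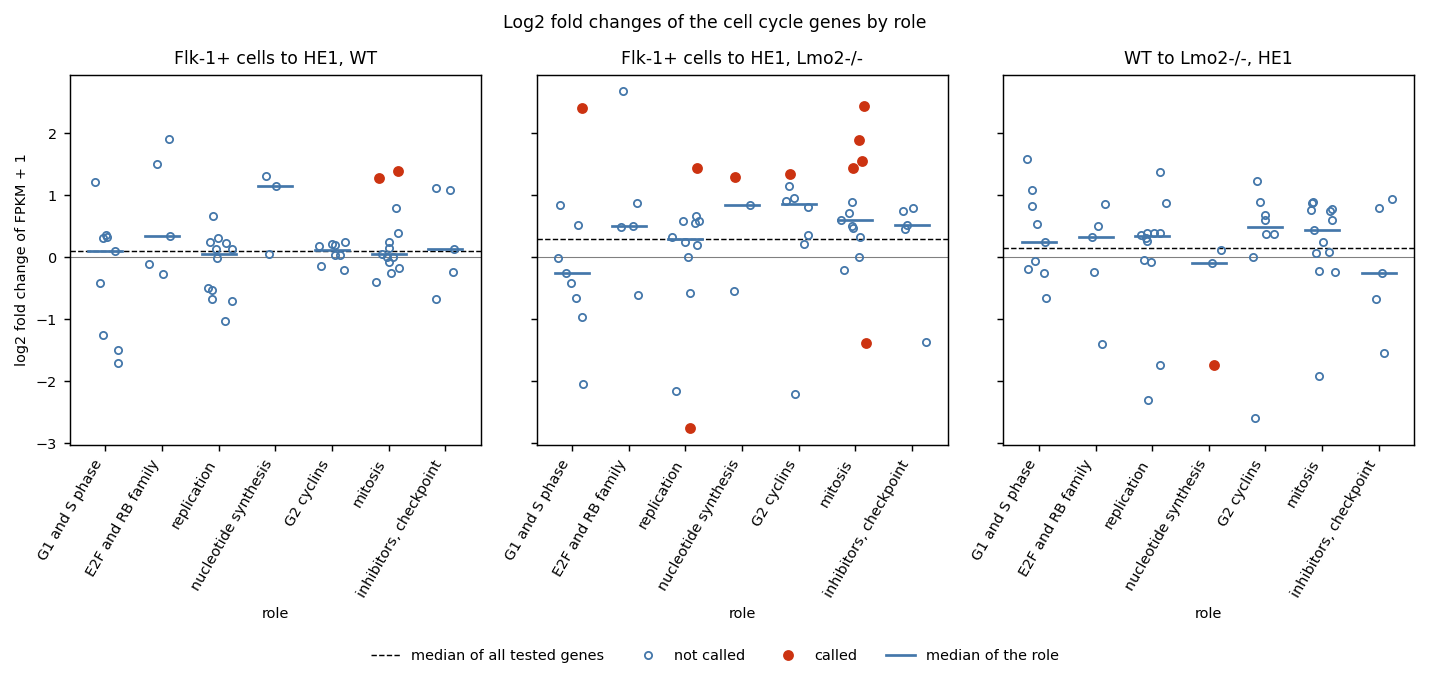
Log2 fold changes on the log2(FPKM + 1) scale by role for the WT step to HE1, the Lmo2-/- step to HE1, and WT to Lmo2-/- HE1, with filled red points for called genes and a dashed line at the median of all tested genes (0.11, 0.30 and 0.15). The called genes number 2, 10 and 1, and the 5 called mitosis genes of the Lmo2-/- step are Mki67, Top2a, Ttk, Cenpe and Birc5.

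Among the D-type cyclins, which bind CDK4 and CDK6 and start the inactivation of RB, Ccnd3 rose with the step to HE1 in Lmo2-/-. In Flk-1+ cells Ccnd3 was at 26.5, 27.7 and 23.4 FPKM in WT, 18.7, 33.1 and 21.8 FPKM in Lmo2-/- and 31.7, 24.9 and 22.7 FPKM in Tal1-/-. In HE1 it was at 75.8 and 49.3 FPKM in WT and 62.7 and 272 FPKM in Lmo2-/-. Every HE1 library was above every Flk-1+ library, and the HE1 genotypes overlapped. The log2 fold change to HE1 was 2.41 in Lmo2-/- (SE 0.50, limma adjusted p = 0.00425) and 1.36 without replicate 1 (limma adjusted p = 0.0439). In WT it was 1.21 (SE 0.50, limma adjusted p = 0.157), and the interaction was 1.19 (SE 0.71, limma adjusted p = 0.510), or 0.15 without Lmo2-/- HE1 replicate 1.

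Ccnd2 was at 53.2, 23.4 and 30.4 FPKM in WT, 138, 49.9 and 32.5 FPKM in Lmo2-/- and 42.3, 94.8 and 59.2 FPKM in Tal1-/- Flk-1+ cells. Its HE1 libraries were at 9.37 and 9.90 FPKM in WT and 16.7 and 55.6 FPKM in Lmo2-/-. The WT HE1 libraries were below all WT Flk-1+ libraries (log2 fold change -1.70, SE 0.62, limma adjusted p = 0.109), and the Lmo2-/- stages overlapped (-0.97, SE 0.62, limma adjusted p = 0.267, and -1.80 without HE1 replicate 1). Ccnd1 was between 21.2 and 54.3 FPKM in Flk-1+ cells, at 36.4 and 30.9 FPKM in WT HE1 and at 51.3 and 71.0 FPKM in Lmo2-/- HE1, where both libraries were above WT (log2 fold change 0.83, SE 0.48, limma adjusted p = 0.344).

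As a share of the summed FPKM of the 3 D-type cyclins, Ccnd3 made up 10.2 to 37.5 percent in the 9 Flk-1+ libraries and 48.0 to 68.2 percent in the 4 HE1 libraries. Ccnd2 made up 31.6 to 75.4 percent in Flk-1+ cells and 7.70 to 14.0 percent in HE1. For both genes the stages did not overlap, with or without Lmo2-/- HE1 replicate 1. The Ccnd1 share overlapped, at 14.4 to 39.5 percent and 17.8 to 39.2 percent. The sum itself was 73.9 to 183 FPKM in Flk-1+ cells and 90.1 to 398 FPKM in HE1.

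**Figure D3:**
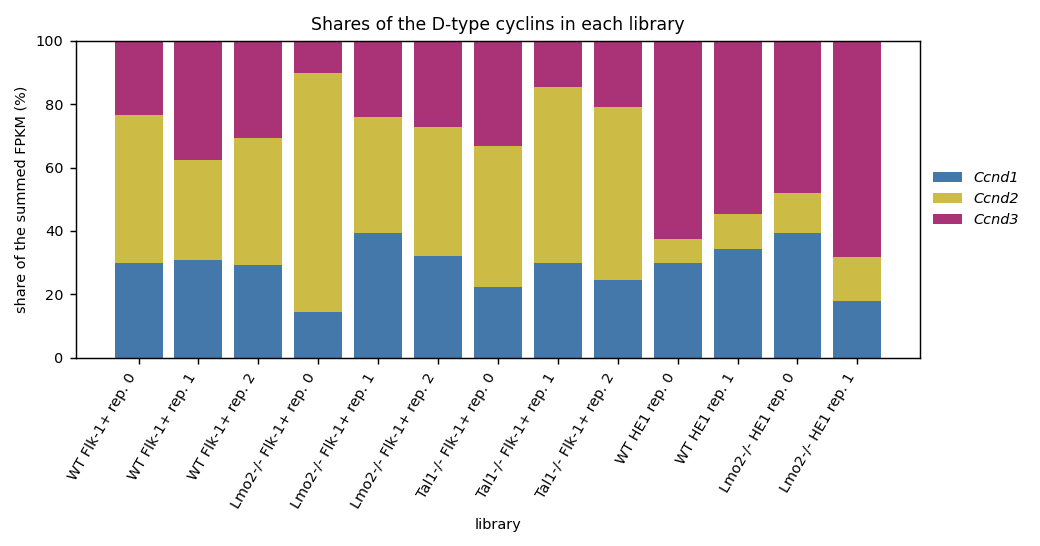
Stacked bars show the shares (percent) of Ccnd1, Ccnd2 and Ccnd3 in their summed FPKM, 1 bar per library. Ccnd3 takes 48.0 to 68.2 percent in the 4 HE1 bars and 10.2 to 37.5 percent in the 9 Flk-1+ bars.

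Ccne1, the cyclin that activates CDK2 at S phase entry, was at 8.24, 5.06 and 6.0 FPKM in WT, 2.90, 9.41 and 6.87 FPKM in Lmo2-/- and 10.7, 16.6 and 23.1 FPKM in Tal1-/- Flk-1+ cells. All Tal1-/- libraries were above those of the other genotypes, with log2 fold changes of 1.22 from WT (SE 0.57, limma adjusted p = 0.828) and 1.32 from Lmo2-/- (SE 0.57, limma adjusted p = 0.833), comparisons that share the Tal1-/- libraries. The level in HE1 was 3.68 and 0.457 FPKM in WT and 1.75 and 0 FPKM in Lmo2-/-, below the Flk-1+ libraries of the same genotype. The Lmo2-/- step had a log2 fold change of -2.04 (SE 0.64, limma adjusted p = 0.0323), but no group mean was above 10 FPKM, so it was not called, and without HE1 replicate 1 the value was -1.31 (limma adjusted p = 0.249).

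Cdk6, a partner of D-type cyclins, was between 7.17 and 11.2 FPKM in Flk-1+ cells, at 3.35 and 3.33 FPKM in WT HE1 and at 3.99 and 6.95 FPKM in Lmo2-/- HE1. All HE1 libraries were below all Flk-1+ libraries, with log2 fold changes of -1.26 in WT (SE 0.39, limma adjusted p = 0.0619) and -0.65 in Lmo2-/- (SE 0.39, limma adjusted p = 0.241), the latter -0.98 without HE1 replicate 1. Cdk4, the other partner, ran from 49.9 to 289 FPKM, both ends in Lmo2-/- HE1. Cdk2 ran from 6.54 to 13.6 FPKM, Ccne2, which encodes cyclin E2, from 4.49 to 34.8 FPKM, and Cdc25a, a phosphatase that activates CDK2, from 7.44 to 28.3 FPKM, and none of these was called.

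None of the E2F and RB genes was called, and apart from E2f3 most of their libraries were below 10 FPKM. E2f1, an activating E2F, was between 1.66 and 7.12 FPKM in Flk-1+ cells, at 4.13 and 2.85 FPKM in WT HE1 and at 1.15 and 5.61 FPKM in Lmo2-/- HE1, and its groups overlapped in every comparison. E2f2, another activator, was at 0.301, 0.625 and 0.416 FPKM in WT, 0.172, 0.117 and 0.361 FPKM in Lmo2-/- and 0.513, 8.60 and 5.62 FPKM in Tal1-/- Flk-1+ cells. In HE1 it was at 9.21 and 1.88 FPKM in WT and 0 and 58.9 FPKM in Lmo2-/-, so the Lmo2-/- libraries were the lowest and the highest of the 13. The Tal1-/- libraries were above the Lmo2-/- ones (log2 fold change 1.92, SE 1.13, limma adjusted p = 0.901), and WT HE1 above WT Flk-1+ cells (log2 fold change 1.91, SE 1.27, limma adjusted p = 0.392).

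Rb1, the retinoblastoma gene, was at 1.79, 1.45 and 2.39 FPKM in WT, 2.32, 0.664 and 0.842 FPKM in Lmo2-/- and 16.1, 3.17 and 1.85 FPKM in Tal1-/- Flk-1+ cells. Its HE1 libraries were at 3.0 and 15.2 FPKM in WT and 8.35 and 0 FPKM in Lmo2-/-. Of the comparisons made, only that of WT Flk-1+ cells and WT HE1 had no overlap (log2 fold change 1.5, SE 0.94, limma adjusted p = 0.364). A pair of further entries of this name at the same locus were listed at 0, except 1.67 FPKM in 1 Lmo2-/- Flk-1+ library. E2f3, also an activator, ran from 13.4 to 34.0 FPKM and Rbl1, which encodes the RB relative p107, from 2.11 to 8.52 FPKM.

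The 12 genes of replication licensing and the fork had a median log2 fold change of 0.06 for the WT step to HE1, with 6 of 12 higher and 0 called. In Lmo2-/- the median was 0.29, with 9 of 12 higher, and -0.02 without HE1 replicate 1. There, Mcm10 rose and Pcna fell. Pcna, the sliding clamp of the fork, was at 11.1, 8.92 and 15.3 FPKM in WT, 7.0, 14.1 and 15.2 FPKM in Lmo2-/- and 4.02, 5.19 and 11.5 FPKM in Tal1-/- Flk-1+ cells. The level in HE1 was 6.94 and 3.80 FPKM in WT and 2.42 and 0 FPKM in Lmo2-/-. HE1 libraries were below the Flk-1+ libraries of their genotype, and Lmo2-/- HE1 was below WT HE1. The log2 fold change to HE1 was -2.76 in Lmo2-/- (SE 0.60, limma adjusted p = 0.00520), and -1.87 without replicate 1, where Pcna was listed at 0 (limma adjusted p = 0.0611). In WT it was -1.02 (SE 0.60, limma adjusted p = 0.325), and the interaction was -1.74 (SE 0.84, limma adjusted p = 0.427), or -0.85 without Lmo2-/- HE1 replicate 1.

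Mcm10, which helps to activate the replicative helicase, was at 13.9, 17.3 and 14.3 FPKM in Lmo2-/- Flk-1+ cells and at 26.5 and 68.2 FPKM in Lmo2-/- HE1. The stages did not overlap (log2 fold change 1.44, SE 0.46, limma adjusted p = 0.0344), and the value was 0.77 without replicate 1 (limma adjusted p = 0.312) and 0.41 with quantile normalization. In WT the stages overlapped, at 21.5, 16.7 and 16.9 FPKM against 31.4 and 16.4 FPKM.

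Mcm2 to Mcm7 encode the subunits of the helicase, and none was called. Mcm2 was at 38.5, 62.4 and 41.2 FPKM in WT, 38.2, 26.4 and 43.2 FPKM in Lmo2-/- and 28.8, 26.5 and 30.4 FPKM in Tal1-/- Flk-1+ cells. All Tal1-/- libraries were below all WT libraries (log2 fold change -0.68, SE 0.31, limma adjusted p = 0.807). WT HE1, at 30.4 and 34.9 FPKM, was also below WT Flk-1+ cells (log2 fold change -0.49, SE 0.35, limma adjusted p = 0.421). Mcm5 and Mcm7 were likewise below in WT HE1, with log2 fold changes of -0.52 (limma adjusted p = 0.486) and -0.67 (limma adjusted p = 0.294), and Mcm6 was above, with 0.23 (limma adjusted p = 0.781). In Flk-1+ cells Mcm7 was at 26.2, 33.7 and 33.7 FPKM in WT and at 35.3, 41.2 and 33.8 FPKM in Tal1-/-, all above WT (log2 fold change 0.23, SE 0.33, limma adjusted p = 0.997). Mcm3 ran from 45.2 to 119 FPKM and Mcm4 from 17.7 FPKM upward, with 38.5 FPKM as its highest Flk-1+ library.

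Of the genes that load or restrain the helicase, Cdc6 ran from 5.53 to 22.3 FPKM, and Orc1 and Orc6, subunits of the origin recognition complex, from 3.35 to 18.6 FPKM and from 3.35 to 21.5 FPKM. Orc1 was higher in both Lmo2-/- HE1 libraries, at 9.34 and 16.7 FPKM, than in WT HE1, at 3.35 and 5.32 FPKM (log2 fold change 1.37, SE 0.64, limma adjusted p = 0.247). Gmnn, which encodes the licensing inhibitor geminin, was between 9.09 and 22.6 FPKM in Flk-1+ cells, at 6.55 and 26.3 FPKM in WT HE1 and at 7.54 and 0 FPKM in Lmo2-/- HE1. The Lmo2-/- HE1 libraries were below all Lmo2-/- Flk-1+ libraries (log2 fold change -2.16, SE 0.77, limma adjusted p = 0.0543), and the value without replicate 1, where Gmnn was listed at 0, was -0.61 (limma adjusted p = 0.579).

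In nucleotide synthesis, Tyms, which encodes thymidylate synthase, fell from WT to Lmo2-/- HE1. In Flk-1+ cells it was at 8.59, 9.70 and 11.7 FPKM in WT, 12.6, 10.7 and 9.29 FPKM in Lmo2-/- and 7.51, 19.8 and 10.4 FPKM in Tal1-/-. In HE1 it was at 22.1 and 30.6 FPKM in WT and 6.60 and 7.65 FPKM in Lmo2-/-. WT HE1 was above WT Flk-1+ cells, whereas Lmo2-/- HE1 was below Lmo2-/- Flk-1+ cells and below WT HE1. The log2 fold change between HE1 genotypes was -1.74 (SE 0.45, limma adjusted p = 0.0457). It was -1.83 without Lmo2-/- HE1 replicate 1 (limma adjusted p = 0.117), -1.96 without WT HE1 replicate 0 (limma adjusted p = 0.126) and -1.51 without WT HE1 replicate 1 (limma adjusted p = 0.205), and the call was also lost without any 1 WT or Lmo2-/- Flk-1+ library or Tal1-/- Flk-1+ replicate 2.

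Rrm1 and Rrm2 encode the subunits of ribonucleotide reductase, which makes deoxynucleotides. Rrm1 was at 33.2, 16.8 and 22.2 FPKM in WT, 19.6, 20.4 and 18.9 FPKM in Lmo2-/- and 29.1, 22.9 and 28.4 FPKM in Tal1-/- Flk-1+ cells. Its HE1 libraries were at 51.3 and 54.1 FPKM in WT and 68.6 and 35.4 FPKM in Lmo2-/-, above all Flk-1+ libraries. The log2 fold change to HE1 was 1.29 in Lmo2-/- (SE 0.37, limma adjusted p = 0.0213) and 1.15 in WT (SE 0.37, limma adjusted p = 0.0668). In Lmo2-/- it was 1.76 without HE1 replicate 1 (limma adjusted p = 0.0123), 0.82 without HE1 replicate 0 (limma adjusted p = 0.118) and 0.26 with quantile normalization (limma adjusted p = 0.741). Rrm2 was at 18.5, 29.6 and 15.3 FPKM in Lmo2-/- Flk-1+ cells and at 36.9 and 38.3 FPKM in Lmo2-/- HE1 (log2 fold change 0.85, SE 0.36, limma adjusted p = 0.102).

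Among the G2 genes, Foxm1, which encodes a transcription factor of G2 and mitosis genes, rose with the step to HE1 in Lmo2-/-. It was at 10.6, 25.4 and 19.2 FPKM in Lmo2-/- Flk-1+ cells and at 32.8 and 63.3 FPKM in Lmo2-/- HE1, without overlap (log2 fold change 1.35, SE 0.45, limma adjusted p = 0.0435). The value was 0.88 without HE1 replicate 1 (limma adjusted p = 0.287) and 0.30 with quantile normalization (limma adjusted p = 0.670), and in WT it was 0.19 (SE 0.45, limma adjusted p = 0.847). Ccnf, a cyclin of an SCF ubiquitin ligase, was at 21.8 and 15.2 FPKM in WT HE1 and at 34.1 and 57.6 FPKM in Lmo2-/- HE1 (log2 fold change 1.24, SE 0.46, limma adjusted p = 0.145). The entries of Foxm1, Ccnf, Mcm7 and Top2a also carry names of overlapping genes, whose reads could not be told apart.

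Cdk1, the kinase that drives entry into mitosis, was at 31.5, 27.3 and 25.4 FPKM in WT, 23.4, 21.7 and 19.8 FPKM in Lmo2-/- and 14.5, 23.4 and 20.9 FPKM in Tal1-/- Flk-1+ cells. All knockout libraries were below all WT libraries, with log2 fold changes of -0.36 in Lmo2-/- (SE 0.79, limma adjusted p = 1.00) and -0.52 in Tal1-/- (SE 0.79, limma adjusted p = 1.00), comparisons that share the WT libraries. The level in HE1 was 24.1 and 34.4 FPKM in WT and 23.0 and 0 FPKM in Lmo2-/- (log2 fold change -2.60, SE 0.96, limma adjusted p = 0.145). Without replicate 1, where Cdk1 was listed at 0, the value was -0.31 (SE 0.40). All groups share 1 estimate of the spread, so the SE of 0.79 in Flk-1+ cells also includes this 0.

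Ccnb1, which encodes cyclin B1, the partner of CDK1, was at 13.1, 7.70 and 21.2 FPKM in WT, 11.5, 4.94 and 7.88 FPKM in Lmo2-/- and 16.9, 24.4 and 16.0 FPKM in Tal1-/- Flk-1+ cells. The Tal1-/- libraries were above the Lmo2-/- ones (log2 fold change 1.18, SE 0.53, limma adjusted p = 0.833). In HE1 the genotypes overlapped, at 8.21 and 27.6 FPKM in WT and 26.5 and 8.80 FPKM in Lmo2-/-. Cdc25b, a phosphatase that activates CDK1, was at 2.21, 3.03 and 3.84 FPKM in WT and at 1.57, 1.58 and 1.70 FPKM in Tal1-/- Flk-1+ cells, without overlap (log2 fold change -0.60, SE 0.44, limma adjusted p = 0.952). Ccna2 and Ccnb2, which encode cyclins A2 and B2, ran from 29.2 to 81.3 FPKM and from 6.23 to 68.5 FPKM, and the phosphatase gene Cdc25c from 2.96 to 7.93 FPKM. GENCODE lists pseudogenes for 5 of the 55 genes (Ccnb1, Ccnb2, Ccnd3, Pcna and Tyms), whose levels are uncertain where reads are shared.

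Mitosis, 13 of the 55 genes, held 5 of the 10 genes called in the Lmo2-/- step to HE1, 4 higher and 1 (Birc5) lower. Over all genes limma called 17.2 percent higher and 2.38 percent lower. Both genes called in WT were mitosis genes, beside 6.04 percent of all genes called higher. With quantile normalization only Mki67 and Birc5 of these were called in Lmo2-/-, and none in WT. Mki67, whose protein coats mitotic chromosomes and marks cycling cells, was at 174, 103 and 114 FPKM in WT, 121, 91.3 and 109 FPKM in Lmo2-/- and 181, 103 and 116 FPKM in Tal1-/- Flk-1+ cells. In HE1 it was at 369.9 and 308 FPKM in WT and 575 and 585 FPKM in Lmo2-/-. HE1 was above every Flk-1+ library, and Lmo2-/- HE1 was above WT HE1. The log2 fold change to HE1 was 2.44 in Lmo2-/- (SE 0.34, limma adjusted p = 0.000436) and 2.42 without replicate 1 (limma adjusted p = 0.00425). In WT it was 1.40 (SE 0.34, limma adjusted p = 0.0203). The WT call was lost without WT Flk-1+ replicate 1 (1.25, limma adjusted p = 0.0755) or replicate 2 (1.33, limma adjusted p = 0.0692) and without WT HE1 replicate 0 (1.27, limma adjusted p = 0.173) or replicate 1 (1.53, limma adjusted p = 0.0844). With quantile normalization the WT value was 1.17 (limma adjusted p = 0.0621). The HE1 genotypes had a log2 fold change of 0.78 (SE 0.37, limma adjusted p = 0.259), and the interaction was 1.03 (SE 0.48, limma adjusted p = 0.415).

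Top2a, the topoisomerase that untangles chromosomes, was at 127, 57.9 and 89.6 FPKM in WT, 102, 72.3 and 60.5 FPKM in Lmo2-/- and 132, 99.9 and 84.5 FPKM in Tal1-/- Flk-1+ cells. Its HE1 libraries were at 213 and 212 FPKM in WT and 339.6 and 245 FPKM in Lmo2-/-, in the same order as Mki67 and again above all Flk-1+ libraries. The log2 fold change to HE1 was 1.90 in Lmo2-/- (SE 0.38, limma adjusted p = 0.00319) and 2.14 without replicate 1 (limma adjusted p = 0.0105). In WT it was 1.28 (SE 0.38, limma adjusted p = 0.0487), and the call was lost without WT Flk-1+ replicate 1 (0.99, limma adjusted p = 0.171) or replicate 2 (1.30, limma adjusted p = 0.109) and without WT HE1 replicate 0 (1.27, limma adjusted p = 0.225) or replicate 1 (1.28, limma adjusted p = 0.183). With quantile normalization the values were 1.01 in Lmo2-/- (limma adjusted p = 0.15) and 0.96 in WT (limma adjusted p = 0.216).

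Ttk, which encodes the checkpoint kinase MPS1, was at 13.5, 7.68 and 9.23 FPKM in Lmo2-/- Flk-1+ cells and rose to 30.8 and 31.4 FPKM in Lmo2-/- HE1. The stages did not overlap, with a log2 fold change of 1.56 (SE 0.39, limma adjusted p = 0.0118) and of 1.55 without replicate 1 (limma adjusted p = 0.0493). Cenpe, which encodes a kinetochore motor, rose from 46.5, 22.5 and 56.3 FPKM to 85.9 and 136 FPKM (log2 fold change 1.45, SE 0.41, limma adjusted p = 0.0205), and the value without replicate 1 was 1.12 (limma adjusted p = 0.15). With quantile normalization these changes were 0.62 for Ttk and 0.36 for Cenpe, and neither was called.

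Birc5, which encodes survivin, a subunit of the chromosomal passenger complex, was at 15.2, 18.7 and 25.7 FPKM in WT and at 18.2, 34.6 and 20.4 FPKM in Lmo2-/- Flk-1+ cells. The level in HE1 was 36.4 and 32.2 FPKM in WT and 15.7 and 4.17 FPKM in Lmo2-/-, so WT HE1 was above and Lmo2-/- HE1 below the Flk-1+ libraries of the same genotype. The Lmo2-/- step had a log2 fold change of -1.39 (SE 0.47, limma adjusted p = 0.0443), and -0.55 without replicate 1 (limma adjusted p = 0.426). The WT step had 0.79 (SE 0.47, limma adjusted p = 0.336), and the HE1 genotypes -1.92 (SE 0.52, limma adjusted p = 0.0517), or -1.08 without Lmo2-/- HE1 replicate 1 (limma adjusted p = 0.312).

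The other 8 mitosis genes were not called in any comparison. The spindle checkpoint genes Bub1, Bub1b and Mad2l1, the kinase genes Plk1, Aurka and Aurkb, the activator gene Cdc20 and the centromeric histone gene Cenpa lay between 6.90 and 67.5 FPKM. Plk1 had log2 fold changes to HE1 of -0.18 in WT and -0.21 in Lmo2-/-, and Aurka of -0.25 and 0.0013. Without Lmo2-/- HE1 replicate 1 the Lmo2-/- values were -0.65 for Plk1 and 0.56 for Aurka. Over the 13 mitosis genes the median log2 fold change to HE1 was 0.05 in WT, with 9 of 13 higher, and 0.60 in Lmo2-/-, with 11 of 13 higher, beside 0.11 and 0.30 over all tested genes. In Lmo2-/- it was 0.56 without replicate 1 and 1.01 without replicate 0.

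**Figure D4:**
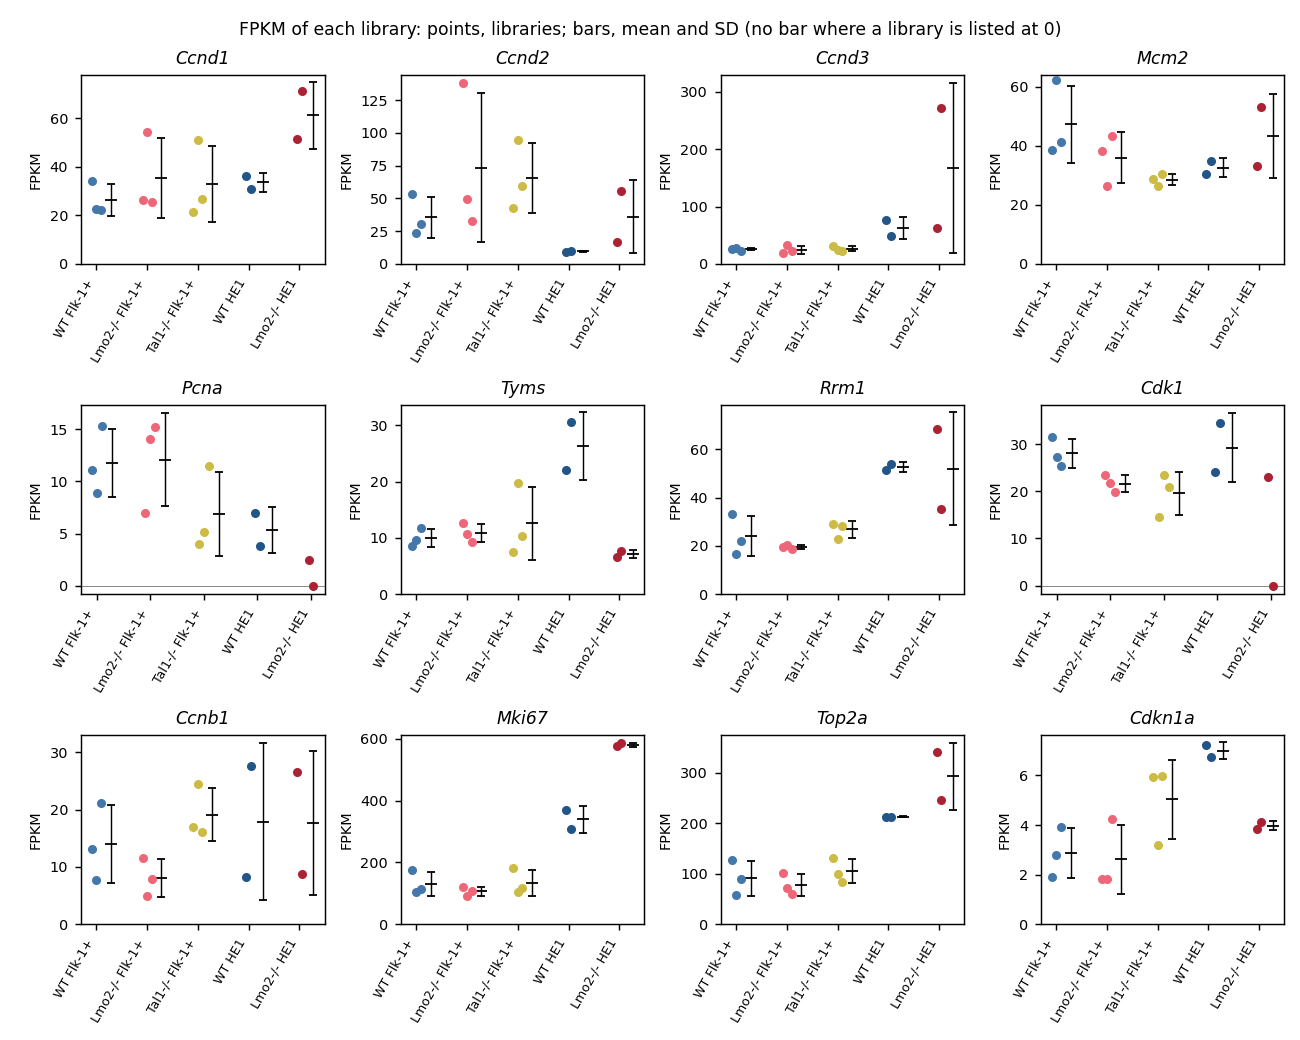
FPKM of 12 cell cycle genes in the 5 groups, with points for libraries and bars for the mean and SD (no bar where a library was listed at 0). Mki67 and Top2a are above all Flk-1+ libraries in the 4 HE1 libraries, at 308 to 585 FPKM and 212 to 339.6 FPKM, while Pcna is at 0 to 6.94 FPKM there.

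None of the inhibitors and checkpoint kinases was called. Cdkn1a, which encodes p21, was at 1.89, 2.81 and 3.93 FPKM in WT, 1.83, 1.81 and 4.23 FPKM in Lmo2-/- and 5.92, 3.21 and 5.99 FPKM in Tal1-/- Flk-1+ cells. In HE1 it was at 7.23 and 6.75 FPKM in WT and 3.84 and 4.11 FPKM in Lmo2-/-. WT HE1 was above all Flk-1+ libraries (log2 fold change from WT Flk-1+ cells 1.08, SE 0.47, limma adjusted p = 0.182) and above Lmo2-/- HE1 (log2 fold change -0.68, SE 0.52, limma adjusted p = 0.481). Cdkn1b, which encodes p27, had the other order in HE1, at 4.70 and 6.97 FPKM in WT and 11.5 and 12.7 FPKM in Lmo2-/- (log2 fold change 0.95, SE 0.50, limma adjusted p = 0.301).

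Cdkn2c, which encodes p18, was listed at 0 in 8 of 9 Flk-1+ libraries and at 0.235 FPKM in the other, at 1.07 and 1.28 FPKM in WT HE1 and at 2.27 and 0 FPKM in Lmo2-/- HE1. Wee1, the kinase that holds CDK1 inactive, was between 0.723 and 7.80 FPKM in Flk-1+ cells, at 5.33 and 8.39 FPKM in WT HE1 and at 6.04 and 0 FPKM in Lmo2-/- HE1. Chek1, the checkpoint kinase CHK1, was at 6.97 and 16.5 FPKM in WT HE1 and at 19.5 and 19.4 FPKM in Lmo2-/- HE1 (log2 fold change 0.79, SE 0.56, limma adjusted p = 0.449).

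A further list of cell cycle genes, of which 92 were tested, gave the same tests for 34 mitosis genes, 31 replication genes and 27 regulators. In the Lmo2-/- step to HE1, 12 of 34 mitosis genes, 3 of 31 replication genes and 6 of 27 regulators were called higher and 1 regulator, Cks1b, lower, beside 17.2 percent of all genes higher and 2.38 percent lower. Without HE1 replicate 1 these were 10 of 34, 1 of 31 and 2 of 27 higher and 0 lower, beside 10.1 percent of all genes higher and 1.89 percent lower. In the WT step 3 of 92 were called higher, beside 6.04 percent of all genes, the motor gene Kif4 (1.63 on the log2 scale, SE 0.42, limma adjusted p = 0.0284), Mdm2, which restrains p53 (1.71, SE 0.40, limma adjusted p = 0.0156), and the p53 target Ccng1 (1.25, SE 0.34, limma adjusted p = 0.0362). Cenpf, a kinetochore gene, rose in the Lmo2-/- step by 2.34 (SE 0.39, limma adjusted p = 0.00125).

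Between the HE1 genotypes 1 gene of that list was called higher and 1 lower, beside 2.15 and 0.855 percent of all genes. Cdkn1c, which encodes the inhibitor p57, was at 1.22 and 3.16 FPKM in WT and 44.7 and 47.2 FPKM in Lmo2-/- HE1 (log2 fold change 3.95, SE 0.55, limma adjusted p = 0.00233). In Flk-1+ cells it was at 15.8, 8.90 and 4.81 FPKM in WT and 17.8, 30.3 and 20.5 FPKM in Lmo2-/-, also without overlap. WT HE1 thus lay below WT Flk-1+ cells, and Lmo2-/- HE1 above Lmo2-/- Flk-1+ cells. Cks1b, which encodes a CDK subunit, was at 27.9 and 26.1 FPKM in WT and fell to 3.64 and 0 FPKM in Lmo2-/- (log2 fold change -3.70, SE 0.71, limma adjusted p = 0.0127). Without Lmo2-/- HE1 replicate 1 the values were 3.91 for Cdkn1c (limma adjusted p = 0.0163) and -2.59 for Cks1b, which was then not called (limma adjusted p = 0.0950). In HE1 the genotypes overlapped for neither. In the Flk-1+ comparisons and the interaction limma called 0 of the 92.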

How the data were processed

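RNAseq libraries of Flk-1+ cells and HE1 were analysed from the FPKM table of 13 libraries that the authors deposited. The authors mapped reads to GRCm38/mm10 with TopHat 2.0.9, assembled transcripts with Cufflinks 2.0.0 (quartile normalisation) and made FPKM per library with Cuffnorm. FPKM keep no fragment counts, so depth and its intervals are unknown. Their Cuffdiff 2.0.1 table of pooled FPKM gave the gene names and, as an alternative, role medians. Their table of fold changes and p-values was not used. Columns were mapped to groups by name. Genes with at least 1 FPKM in at least 2 libraries and a locus above 200 bp were tested on log2(FPKM + 1) with limma 3.58.1 (R 4.3.3, mean-variance trend, 1 fit over all groups, two-sided, Benjamini-Hochberg). Such fold changes understate those of low genes. A call needed an adjusted p below 0.05 and a mean above 10 FPKM in a group compared. All listed genes are accounted for by role, and called genes and those with the largest differences without overlap are given by library, others by range or fold change. Genes and lists were chosen with earlier results of these data known. Alternatives covered pseudocount, filter, scaling, samples in the fit, weights, replicate block and each library left out. Scripts were tested on simulated data, where 200 genes were changed by 2 on the log2 scale between the HE1 genotypes. Limma called 72 of these 200, so many real changes of this size can be missed. Motifs, summaries and figures were made in Python 3.11.15 with matplotlib 3.10.9, pandas 2.3.3, scipy 1.17.1 and numpy 2.4.6.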

Additional observations from a re-analysis of the deposited data

Results flagged for a closer look

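Tyms and Birc5 were singled out because both WT HE1 libraries lay above all WT Flk-1+ libraries while both Lmo2-/- HE1 libraries lay below all Lmo2-/- Flk-1+ libraries. For Tyms the step to HE1 differed between Lmo2-/- and WT by -1.85 on the log2 scale (SE 0.58, limma adjusted p = 0.211), so this difference did not pass the test. For Birc5 the difference was -2.18 (SE 0.67, limma adjusted p = 0.193), which did not pass either. Without Lmo2-/- HE1 replicate 1 the differences were -1.94 for Tyms (limma adjusted p = 0.279) and -1.34 for Birc5 (limma adjusted p = 0.439). The gap test for a single outlying value was not run, since it needs 4 libraries in a group.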

How the results depend on the processing

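The 3 Flk-1+ comparisons called 0 of the 55 genes under every alternative run. Between the HE1 genotypes the count went from 1 to 0 with a pseudocount of 0.1, no filter on low values, quantile normalization, only the groups compared in the fit, no mean-variance trend, array weights or a replicate block, and ran from 0 to 10 when each library was left out. For the WT step it went from 2 to 1 with no filter, no trend or a replicate block, to 0 when rescaled to a common median or with only the groups compared, and to 5 with array weights, with a range of 0 to 5 when each library was left out. For the Lmo2-/- step it went from 10 to 2 with only the groups compared or with array weights, with a range of 5 to 14 when each library was left out. The calls in the interaction also changed with the library left out. Counts of called genes in this section have no share over all genes beside them. Whether they followed the number of calls over all genes is therefore not shown. With a library left out, a lone HE1 library can also stand for its group. Mitosis genes with a CHR match went from 9 to 4 in the bases before the start alone. Replicate numbers were not used as pairs in the main fit. For a shared number, deviations from the group means correlated at -0.184 to -0.0147 between WT and Lmo2-/- Flk-1+ cells. They correlated at 0.0741 to 0.169 between WT and Tal1-/-, and at -0.0578 to 0.0234 between Lmo2-/- and Tal1-/- Flk-1+ cells. Between Lmo2-/- Flk-1+ cells and HE1 the values were 0.0612 and 0.111, and between WT Flk-1+ cells and HE1 0.0465 and -0.0137. The HE1 genotypes gave -0.0495, in effect 1 value, since deviations in a group of 2 mirror each other. Libraries with different numbers were not correlated, so whether the numbers pair the samples was not settled. With the replicate block the Lmo2-/- step had 7 calls. Quantile normalization turned the calls of the WT step from 2 higher to 2 lower, none of them shared. No log2 fold change of a called gene changed sign, 258 values kept their side of the threshold and 79 lost it. With 2 HE1 libraries per genotype and no counts, low genes and single zeros limit these results, and the causes of the changes were not tested.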
